A study of Homo sapiens with 12 samples.

Results

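The genes described here were 10 enzymes of arginine and polyamine metabolism, ASS1, ASL, ARG2, CPS1, OAT, ODC1, SRM, SMS, AMD1 and SAT1, among the 28008 genes in each count table of the series. They were picked by symbol from a list that was drawn up on the measured response to doxycycline (DOX). Their response to DOX, with the calls made on it, is therefore a description that supports nothing. P-values of members are printed only for another comparison, on which the list was not drawn up. The authors sequenced the mRNA of 2 established human cell lines from pancreatic neuroendocrine tumors (pNETs), QGP-1 and BON-1. Both lines carried tet-MUC1shRNA, a construct whose hairpin RNA targets MUC1 and is made once DOX is added. The 4 groups of 3 libraries each were QGP-1/tet-MUC1shRNA cells with vehicle, QGP-1/tet-MUC1shRNA cells with DOX, BON-1/tet-MUC1shRNA cells with vehicle and BON-1/tet-MUC1shRNA cells with DOX. The vehicle was 0.1% DMSO, DOX was given at 500 ng/mL, and treatment lasted 7 days. QGP-1 cells grew in RPMI 1640 medium and BON-1 cells in DMEM/F-12 medium, so cell line and medium cannot be told apart. No library of cells with a control hairpin and DOX was analysed here, so the drug and the hairpin cannot be told apart either, and 1 hairpin stands for the silencing in both lines.

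Arginine can be imported or made from citrulline in the last steps of the urea cycle. Argininosuccinate synthase (ASS1) joins citrulline to aspartate, and argininosuccinate lyase (ASL) splits the product into arginine and fumarate. Arginase cuts arginine into urea and ornithine, which can go to proline and glutamate or be decarboxylated to putrescine, the first of the polyamines. Putrescine is lengthened to spermidine and spermine with aminopropyl groups from decarboxylated S-adenosylmethionine, and the finished polyamines are small cations that bind RNA and DNA and are needed for cell growth. Many tumors make little ASS1 and depend on imported arginine.

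Totals ranged from 38224144 to 50525926 counts per QGP-1 library and from 15981954 to 28484324 counts per BON-1 library. Levels of a gene are given as CPM, its counts per 1000000 counts after TMM scaling of the 12 libraries together, and a log2 fold change comes from a fit to the counts within 1 comparison. MUC1, the target of the hairpin, was at 7.37, 5.95 and 5.79 CPM in the QGP-1 vehicle libraries and at 0.722, 1.07 and 0.762 with DOX. In BON-1 cells MUC1 was at 20.2, 20.1 and 15.0 CPM with vehicle and at 1.42, 2.60 and 3.93 with DOX. The target was therefore lower in each DOX library than in any vehicle library of its line, with log2 fold changes of -2.91 ± 0.23 (SE, n = 3 against 3) and -2.79 ± 0.22. The 5 neuroendocrine markers examined, CHGA, CHGB, SYP, ENO2 and SCG2, each had more than 10 counts in every library. In BON-1 cells TTR, 1 of the 3 genes listed as hepatocyte markers, was at 8.28 to 11.8 CPM with vehicle and at 54.0 to 59.7 CPM with DOX. The others did not rise with it, so TTR alone is not read as a hepatocyte level. ALB had 4 to 18 counts in BON-1 libraries with vehicle and 3 to 7 with DOX. APOA1 had at most 1 count there. CHGA was at 6355 to 9153 CPM in BON-1 cells with vehicle and at 2679 to 3064 CPM with DOX. SCG2 went the other way, from 2516 to 2776 CPM up to 3551 to 3653 CPM. CHGB overlapped, at 485 to 602 against 507 to 687 CPM. SYP and ENO2 were slightly lower, at 29.8 to 37.6 against 24.0 to 28.9 CPM and 31.7 to 35.0 against 28.1 to 31.5 CPM. In BON-1 cells the neuroendocrine markers thus did not move as a set. In QGP-1 cells the lowest and the highest CPM of each of the 5 markers were higher with DOX than with vehicle. The QGP-1 groups of CHGB and SYP did not overlap, and those of CHGA, ENO2 and SCG2 did. The marker shifts of each line were in the same libraries as its values below, and their part in those values was not tested. In such bulk libraries fewer cells of a type and less RNA per cell cannot be told apart.

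ASS1 was the 1 member called lower in both lines, and it had the largest change of the 10. The gene lies at chr9:130444961-130501274 on the plus strand (GRCh38). The 150 bases just before its start are shown because they hold CACGTG, the E-box core that MYC family factors can bind, printed in capitals. The same motif was found upstream of SRM and of a listed start of ODC1, and TGACGTCA, the full cAMP response element, was found at 2 places upstream of ARG2. That ODC1 start and the stretch shown before it lie within the annotated gene (chr2:10439968-10448327, minus strand). The sequences are from RefSeq on GRCh38.p14, at chr9:130444811-130444960 (plus strand) for ASS1, chr1:11060100-11060249 (minus strand) for SRM, chr2:10448024-10448053 (minus strand) for ODC1 and chr14:67619720-67619869 (plus strand) for ARG2.
ASS1: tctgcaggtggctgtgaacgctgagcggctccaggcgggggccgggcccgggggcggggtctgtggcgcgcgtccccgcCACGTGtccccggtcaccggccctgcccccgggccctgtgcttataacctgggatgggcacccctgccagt
SRM: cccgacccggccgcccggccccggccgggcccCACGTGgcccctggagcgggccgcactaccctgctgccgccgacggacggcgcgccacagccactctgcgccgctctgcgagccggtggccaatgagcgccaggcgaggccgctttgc
ODC1: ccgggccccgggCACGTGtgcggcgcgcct
ARG2: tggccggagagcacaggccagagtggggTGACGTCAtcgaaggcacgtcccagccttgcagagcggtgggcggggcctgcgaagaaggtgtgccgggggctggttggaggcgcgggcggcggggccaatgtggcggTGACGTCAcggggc

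The E-box core began 71 bases before the start of ASS1, 199 bases before that of SRM and 29 bases before the ODC1 start to which the window belongs, with a second copy 6 bases after that ODC1 start. CPS1 had it 46 bases before 1 of its listed starts. Windows of 300 bases around a start were searched for both motifs, each of which reads the same on both strands. CACGTG was in 7.26% of the 35116 windows and in 4 of the 16 windows of the members, 1 each for ASS1, CPS1, ODC1 and SRM, and TGACGTCA was in 1.85% of windows and in 1 of the 16. A match is a description of the letters, and no binding was measured.

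In QGP-1 cells, ASS1 was at 43.9, 37.5 and 44.2 CPM with vehicle and at 6.71, 7.20 and 8.98 CPM with DOX. In BON-1 cells it was at 3.45, 2.93 and 3.63 CPM with vehicle and at 0.929, 0.509 and 0.706 CPM with DOX. The groups did not overlap in either line, and each DOX library lay well under each vehicle library. With DOX, ASS1 was 5.48-fold lower in QGP-1 cells (log2 fold change -2.46 ± 0.12) and 4.72-fold lower in BON-1 cells (-2.24 ± 0.36). The starting levels were far apart, and each BON-1 vehicle library had less ASS1 than each QGP-1 DOX library. The BON-1 values rest on 68 to 99 counts with vehicle and 10 to 15 counts with DOX. Ordered from the most negative log2 fold change, ASS1 was at place 28 of the 15089 genes tested in QGP-1 cells and at place 60 of 14625 in BON-1 cells. The annotation lists 14 ASS1 pseudogenes, none of which had a row in the count tables, and the handling of reads with more than 1 match is not given.

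The other urea cycle members had smaller differences or few counts. ASL, the enzyme after ASS1, was at 28.2, 26.5 and 25.8 CPM in QGP-1 vehicle libraries and at 18.0, 19.7 and 18.1 CPM with DOX, without overlap and with a log2 fold change of -0.53 ± 0.09. In BON-1 cells ASL was at 23.2, 23.7 and 20.4 CPM with vehicle and at 21.5, 23.5 and 14.5 CPM with DOX, so the groups overlapped and 1 DOX library was apart from the other two. The BON-1 log2 fold change of ASL was -0.19 ± 0.14, and it was between -0.34 and -0.01 when 1 library at a time was left out. CPS1, the mitochondrial enzyme that makes carbamoyl phosphate at the entry of the cycle, had 53, 48 and 62 counts in QGP-1 vehicle libraries and 38, 29 and 31 with DOX. The QGP-1 groups of CPS1 did not overlap, at 1.14 to 1.43 CPM against 0.739 to 0.807 CPM, with a log2 fold change of -0.74 ± 0.34. BON-1 cells had 0, 0 and 2 CPS1 counts with vehicle and 2, 0 and 5 with DOX, too few to enter the fit.

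**Figure D1:**
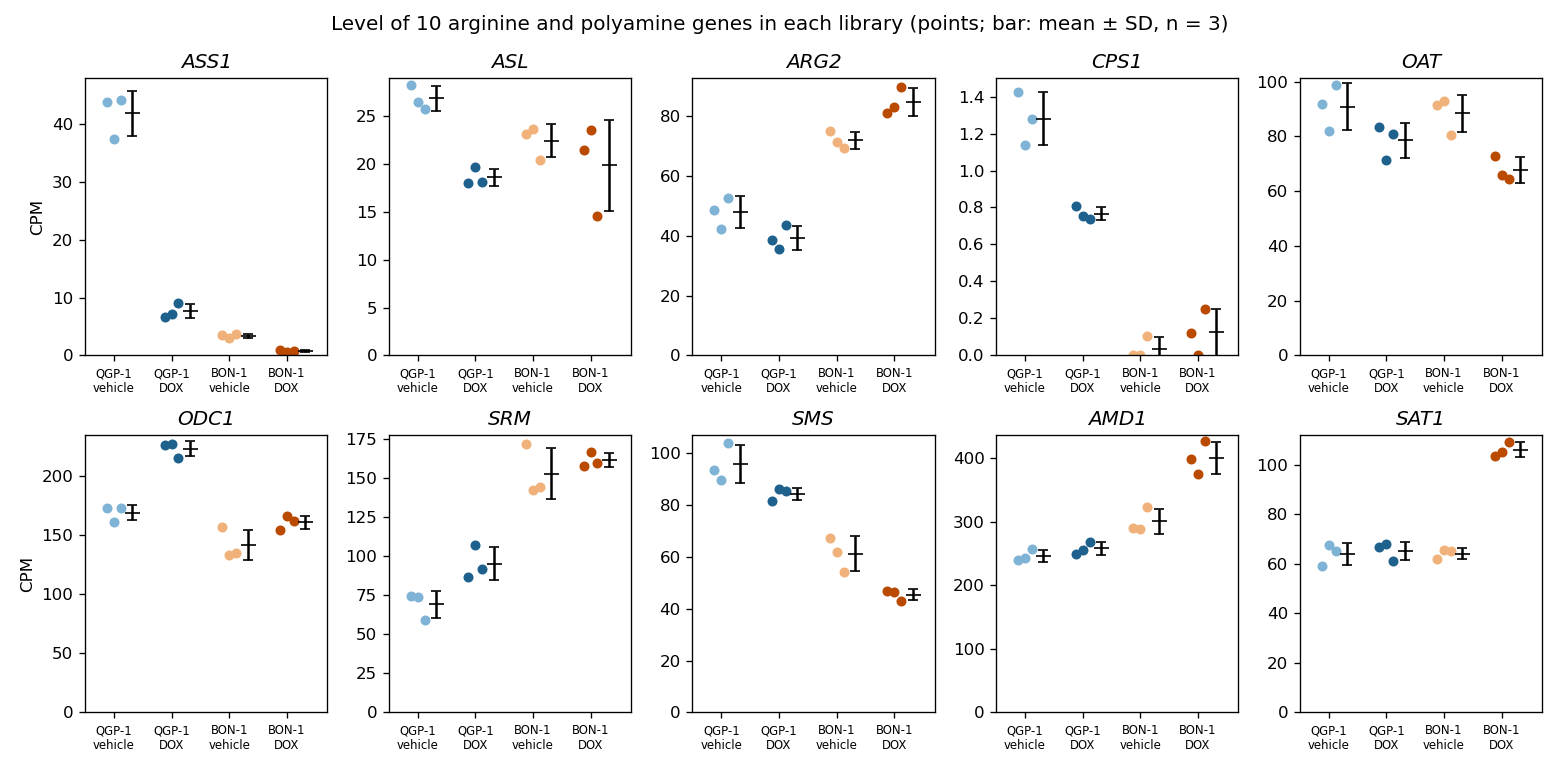
Levels in CPM of the 10 members in each of the 12 libraries (points) with the mean and SD of each group (black bars, n = 3). Each panel has its own linear axis from 0. ASS1 was lower with DOX in both lines, while SAT1 in BON-1 libraries with DOX stood at 104 to 109 CPM against 61.8 to 65.7 CPM.

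ARG2 and OAT, which make and use ornithine in mitochondria, had small differences. ARG2, the mitochondrial arginase, was at 48.7, 42.2 and 52.7 CPM in QGP-1 vehicle libraries and at 38.5, 35.6 and 43.5 CPM with DOX. In BON-1 cells ARG2 was at 75.0, 71.2 and 69.2 CPM with vehicle and at 81.1, 83.1 and 89.8 CPM with DOX. The QGP-1 groups overlapped and the BON-1 groups did not, and the small changes had opposite signs, with log2 fold changes of -0.29 ± 0.10 and 0.23 ± 0.08. Leaving out QGP-1 vehicle replicate 1 or 3 or DOX replicate 1 or 2 took away the call of ARG2 in that line, as did leaving out BON-1 vehicle replicate 2 or 3 or DOX replicate 3 in the other. Both calls were also lost with library size in place of TMM scaling. The BON-1 call was lost as well without the filter on low counts and with the 12 libraries in 1 fit. ARG2 shares a stretch of chromosome 14 with VTI1B on the opposite strand, and the strand setting of the counting is not given. OAT, which turns ornithine toward proline and glutamate, was at 91.8, 81.8 and 98.9 CPM with vehicle and 83.3, 71.3 and 81.0 CPM with DOX in QGP-1 cells, where the groups overlapped. In BON-1 cells OAT was at 91.6, 92.9 and 80.7 CPM with vehicle and at 73.0, 65.8 and 64.4 CPM with DOX, without overlap. The log2 fold changes of OAT were -0.21 ± 0.09 and -0.39 ± 0.09.

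ODC1, ornithine decarboxylase, makes putrescine and is the regulated first step of the pathway. It was at 173, 161 and 173 CPM in QGP-1 vehicle libraries and at 227, 227 and 216 CPM with DOX, without overlap, and its log2 fold change was 0.40 ± 0.06. In BON-1 cells ODC1 was at 157, 133 and 135 CPM with vehicle and at 155, 166 and 162 CPM with DOX, where 1 vehicle library reached into the DOX range and the log2 fold change was 0.17 ± 0.08. SRM, spermidine synthase, was at 74.2, 74.0 and 59.3 CPM with vehicle and at 86.7, 107 and 91.4 CPM with DOX in QGP-1 cells. The QGP-1 groups of SRM did not overlap, and the log2 fold change was 0.46 ± 0.10. In BON-1 cells SRM was at 171, 142 and 144 CPM with vehicle and at 158, 167 and 160 CPM with DOX, overlapping, with a log2 fold change of 0.07 ± 0.08.

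SMS is spermine synthase, and its DOX libraries lay under its vehicle libraries in both lines. In QGP-1 cells SMS was at 93.6, 89.5 and 104 CPM with vehicle and at 81.6, 86.1 and 85.2 CPM with DOX, a narrow gap with a log2 fold change of -0.18 ± 0.07. In BON-1 cells SMS was at 67.4, 62.0 and 54.1 CPM with vehicle and at 46.9, 46.3 and 42.9 CPM with DOX. The gap was wider there, and the log2 fold change of SMS was -0.44 ± 0.09.

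AMD1, S-adenosylmethionine decarboxylase, supplies the aminopropyl groups for both synthases. It was at 240, 243 and 257 CPM with vehicle and 250, 256 and 269 CPM with DOX in QGP-1 cells. In BON-1 cells AMD1 was at 291, 289 and 323 CPM with vehicle and at 399, 376 and 427 CPM with DOX. The QGP-1 groups overlapped and the BON-1 groups did not, and the log2 fold changes were 0.07 ± 0.06 and 0.40 ± 0.08. SAT1, spermidine/spermine N1-acetyltransferase, marks polyamines for export and breakdown. In QGP-1 cells SAT1 was at 59.0, 67.5 and 65.3 CPM with vehicle and at 66.7, 68.0 and 61.2 CPM with DOX, overlapping, with a log2 fold change of 0.03 ± 0.08. In BON-1 cells SAT1 was at 61.8, 65.7 and 65.0 CPM with vehicle and at 104, 105 and 109 CPM with DOX, 1.64-fold higher (log2 fold change 0.72 ± 0.08). The vehicle libraries of both lines and the QGP-1 DOX libraries held SAT1 at 59.0 to 68.0 CPM, and the BON-1 DOX libraries stood above them.

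**Figure D2:**
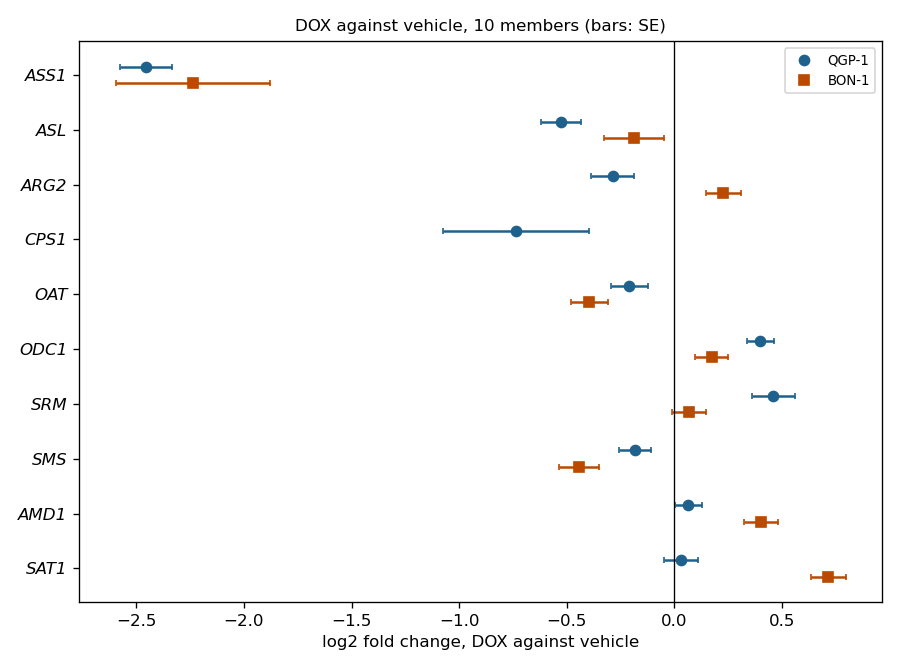
Log2 fold change with DOX against vehicle for each member in QGP-1 (circles) and BON-1 (squares), with bars of 1 standard error. ASS1 lies at -2.46 and -2.24, and the other members tested in both lines lie between -0.53 and 0.72. CPS1 had too few counts for a value in BON-1 cells.

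By edgeR's quasi-likelihood test at an adjusted p below 0.05, 5 of 10 members were called in QGP-1 cells (3 lower, 2 higher) and 6 of the 9 with enough counts in BON-1 cells (3 lower, 3 higher). Across all genes tested, 35.0% were called in the QGP-1 fit, 17.7% lower and 17.3% higher, and 35.3% in the BON-1 fit, 18.3% lower and 17.0% higher. With library size in place of TMM scaling, the BON-1 calls moved from 2677 lower and 2488 higher to 3149 lower and 2030 higher. Groups that did not overlap were found for 6 of 10 members of the QGP-1 fit and 6 of 9 of the BON-1 fit, and for 46.8% and 45.9% of all genes tested. The list of members was drawn up on this contrast, so nothing is read from these shares. The median log2 fold change of the members was -0.20 for QGP-1 and 0.07 for BON-1 cells, beside medians of -0.01 in each line over all genes tested. Set side by side, 1 member was called lower in both lines (ASS1) and 1 was called in opposite directions (ARG2). Over the 13535 genes tested in both lines, 7.23% were called lower in both and 2.69% in opposite directions. Another 7 members were called in 1 line, and 1 was called in neither (CPS1, which was tested in QGP-1 cells only). Nothing is read from these counts either.

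The difference of the DOX response between the lines, BON-1 minus QGP-1, is made of the same values and is given as a description. It was 0.22 ± 0.31 on the log2 scale for ASS1, with a 95% interval from -0.39 to 0.83. It was 0.70 ± 0.11 for SAT1, 0.52 ± 0.13 for ARG2 and 0.35 ± 0.10 for AMD1, the 3 of 10 members called, beside 16.7% of the 16598 genes tested. The differences of ODC1, SRM and SMS were -0.22 ± 0.11, -0.38 ± 0.13 and -0.25 ± 0.12, each toward a lower value in BON-1 cells. None of these 3 was called, but SRM was called with DESeq2, without TMM scaling, without the filter, with 10 or more counts in every library, with the replicate block and in 6 of 12 fits without 1 library, and ODC1 without TMM scaling. Over all genes, library size in place of TMM moved the calls of this difference from 1315 lower and 1461 higher to 1823 lower and 1123 higher. The AMD1 difference was called in 5 of 12 fits without 1 library, and the ARG2 and SAT1 differences in all 12. Without TMM scaling the AMD1 difference was not called. The ASL difference was called only without BON-1 DOX replicate 3, where it was 0.52.

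The vehicle libraries of the 2 lines were compared next, a comparison on which the list of members was not drawn up. The members were chosen with earlier results of these data known, and these libraries are also the reference of the DOX response. The p-values below are therefore no independent support for the choice of members. In the comparison, line, medium, depth and count table cannot be told apart. Of the 10 members, 7 passed edgeR's quasi-likelihood test (4 lower and 3 higher in BON-1 cells), beside 77.5% of all 15835 genes tested, 38.0% lower and 39.4% higher. ASS1 was 12.3-fold lower in BON-1 cells (log2 difference -3.62 ± 0.13, adjusted p = 9.3e-16 by edgeR), at 3.34 ± 0.362 CPM against 41.9 ± 3.81 CPM (SD, n = 3). CPS1 was also lower, with 163 counts over the QGP-1 vehicle libraries and 2 over those of BON-1 cells, a ratio of 45.0 with an exact 95% counting interval from 12.3 to 375. SRM went the other way and was 2.27-fold higher in BON-1 cells (1.18 ± 0.09, adjusted p = 1.5e-10 by edgeR). ARG2 was 1.54-fold higher (0.62 ± 0.09, adjusted p = 2.0e-06) and AMD1 1.25-fold higher (0.32 ± 0.07, adjusted p = 0.00048). SMS was 1.52-fold lower (-0.61 ± 0.09, adjusted p = 2.1e-06) and ODC1 1.16-fold lower (-0.22 ± 0.07, adjusted p = 0.010), the latter with an adjusted p of 0.052 when library size replaced TMM scaling. ASL, at -0.22 ± 0.10, had an adjusted p of 0.052, and DESeq2 gave 0.042. OAT and SAT1 did not pass, with log2 differences of -0.00 (95% interval -0.16 to 0.16) and 0.04 (-0.12 to 0.20).

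**Figure D3:**
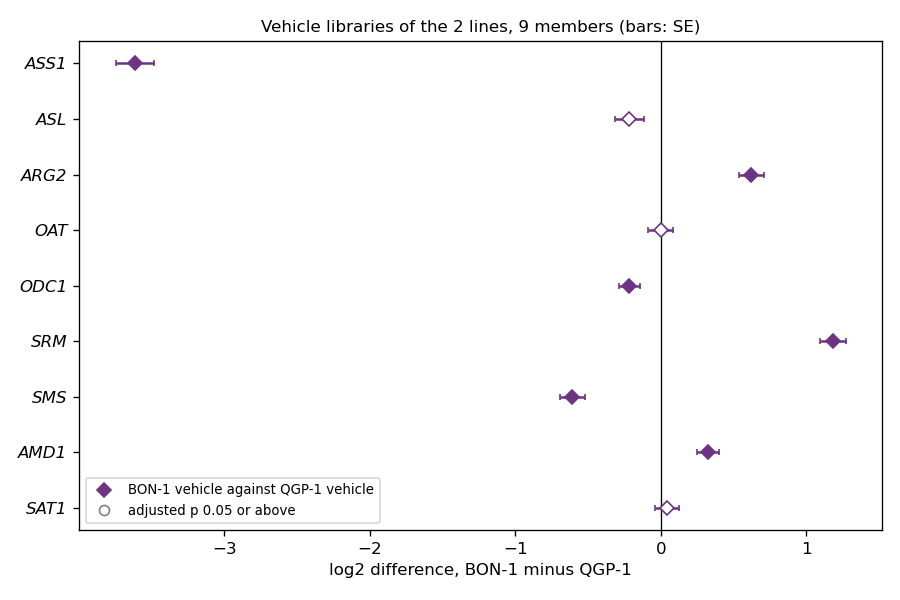
Log2 difference between BON-1 and QGP-1 vehicle libraries for 9 members, with bars of 1 standard error. Filled points passed edgeR's test at an adjusted p below 0.05, open points did not. ASS1 lies lowest at -3.62 and SRM highest at 1.18, and CPS1 is left out because BON-1 vehicle libraries held 2 counts in all.

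Levels of different genes can be compared only per length, for which the deposited TPM values, which divide counts by gene length, were used within each library. In QGP-1 vehicle libraries AMD1, ODC1, SAT1 and SRM had mean TPM of 25.3, 24.8, 24.3 and 24.2, and their order changed between libraries. SMS followed at 21.1, then OAT at 13.2, ARG2 at 9.66, ASS1 at 9.19, ASL at 5.03 and CPS1 at 0.0747, and from SMS downward each stood above the next in all 3 libraries. With DOX, ASS1 was under ASL in all 3 QGP-1 libraries, at a mean of 2.82 TPM against 5.84. In BON-1 vehicle libraries SRM was first at 138 TPM, above AMD1 at 81.3, SAT1 at 64.6 and ODC1 at 54.0, in the same order in all 3 libraries, and ASS1 was ninth at 1.91 TPM under ASL at 11.1. TPM values were not compared between groups, because 3 short abundant RNAs, RN7SK, RN7SL1 and RN7SL2, took means of 58.4% to 79.7% of all TPM depending on the group.

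Genes around the members were read from 5 lists of 59 genes that are no members, of which 58 had a row. The lists were chosen with earlier results of these data known. Several of their genes are named below because they were called, so the p-values printed for them are no independent support. Of 48 tested in QGP-1 cells, 12 fell, 7 rose and 29 did not pass, and of 44 tested in BON-1 cells, 13 fell, 5 rose and 26 did not pass (17 lower and 4 higher in BON-1 cells with library size in place of TMM). These are 25.0% and 29.5% lower and 14.6% and 11.4% higher, beside the shares of all genes given above. The median log2 fold change over these genes was -0.06 for QGP-1 and -0.16 for BON-1 cells. Of the 43 tested in both lines, 8 fell in both and 2 rose in both, and none had calls of opposite sign, by edgeR with adjusted or unadjusted p or by DESeq2. Over the 13535 genes tested in both lines, 7.23% were called lower in both, 6.88% higher in both and 2.69% in opposite directions. At that last share few or none would be met among 43 genes, so nothing is read from their absence. The 2 lines share no libraries.

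Among genes of arginine supply and other uses of arginine, 3 of 15 fell and 2 rose in QGP-1 cells, and 4 of 12 fell and 2 rose in BON-1 cells. AGMAT, annotated as agmatinase, was at 3.28, 2.56 and 2.87 CPM in QGP-1 vehicle libraries and at 0.998, 1.92 and 1.36 CPM with DOX. In BON-1 cells AGMAT was at 18.2, 17.2 and 16.4 CPM with vehicle and at 9.72, 7.64 and 7.96 CPM with DOX. It fell in both lines without overlap, by 1.03 ± 0.28 on the log2 scale (adjusted p = 0.010 by edgeR) and by 1.05 ± 0.15 (adjusted p = 2.6e-06). GAMT, which makes creatine from guanidinoacetate, fell by 0.61 ± 0.13 in QGP-1 cells (adjusted p = 0.0020 by edgeR) and by 1.22 ± 0.21 in BON-1 cells (adjusted p = 4.0e-05). DDAH1, which turns methylated arginines into citrulline, rose by 0.54 ± 0.07 (adjusted p = 5.4e-05 by edgeR) and 0.57 ± 0.09 (adjusted p = 7.8e-06). SLC7A1, the cationic amino acid transporter that imports arginine, was at 193 to 222 CPM with vehicle and 220 to 257 CPM with DOX in QGP-1 cells, and at 96.6 to 118 against 111 to 124 CPM in BON-1 cells. Its log2 fold changes of 0.19 ± 0.08 and 0.16 ± 0.08 did not pass, with adjusted p of 0.079 and 0.13. ARG1, the liver arginase, and OTC, which makes citrulline, had at most 1 count in any library, so ARG2 was the arginase with reads in these cells. NAGS, which makes the activator of CPS1, had 15 to 32 counts in QGP-1 libraries and 0 to 7 in BON-1 libraries, and its QGP-1 log2 fold change of 0.50 ± 0.47 did not pass.

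On the proline and glutamate branch of ornithine, 3 of 9 genes fell and 2 rose in QGP-1 cells, and 3 of 10 fell and 2 rose in BON-1 cells. PYCR1, a mitochondrial reductase of the last step to proline, fell in both lines. It was at 63.3, 60.4 and 55.7 CPM with vehicle and 47.3, 47.3 and 40.2 CPM with DOX in QGP-1 cells, and at 29.6, 25.8 and 23.8 against 18.0, 22.8 and 16.4 CPM in BON-1 cells. Its log2 fold changes were -0.41 ± 0.09 (adjusted p = 0.0026 by edgeR) and -0.48 ± 0.13 (adjusted p = 0.0038). ALDH18A1, which starts proline synthesis from glutamate, rose in QGP-1 cells by 0.32 ± 0.07 (adjusted p = 0.0032 by edgeR), while its BON-1 value of 0.15 ± 0.08 did not pass. PRODH2, a dehydrogenase of hydroxyproline breakdown, had the most negative change called among the list genes in BON-1 cells, from 97, 72 and 53 counts with vehicle to 12, 13 and 10 with DOX (log2 fold change -2.30 ± 0.37, adjusted p = 1.4e-05 by edgeR). In QGP-1 libraries PRODH2 had 2 counts at most.

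Of the genes of polyamine control and breakdown, 2 of 7 fell and none rose in each line by edgeR. DESeq2 also called 2 lower in each line and limma called 3. At an unadjusted p below 0.05 by edgeR 4 were lower. None was higher by any of these, all of which used the same libraries. Over all genes tested, 17.3% (QGP-1) and 17.0% (BON-1) were called higher by edgeR. At these shares few or none would be met among 7 genes, so nothing is read from the absence of higher calls. OAZ1 and OAZ2 encode antizymes, which bind ornithine decarboxylase and send it to the proteasome. OAZ2 was at 90.6, 87.3 and 91.6 CPM with vehicle and 73.0, 74.9 and 74.8 CPM with DOX in QGP-1 cells, and at 83.9, 75.2 and 75.9 against 49.2, 54.1 and 48.6 CPM in BON-1 cells. It fell by 0.27 ± 0.07 (adjusted p = 0.0065 by edgeR) and by 0.64 ± 0.09 (adjusted p = 1.2e-06). OAZ1 had log2 fold changes of -0.23 ± 0.08 (adjusted p = 0.033 by edgeR) and -0.17 ± 0.08 (adjusted p = 0.084), and in QGP-1 cells it was not called without vehicle replicate 1 or 2 or DOX replicate 2 or 3 (adjusted p of 0.089 to 0.16). AZIN1, the antizyme inhibitor, had log2 fold changes of 0.07 ± 0.07 and -0.15 ± 0.07, neither of which passed. SMOX, spermine oxidase, was at 2.23 to 2.77 CPM with vehicle and 2.34 to 2.87 CPM with DOX in QGP-1 cells. In BON-1 cells SMOX was at 24.4, 23.3 and 22.3 CPM with vehicle and at 18.8, 19.5 and 16.4 CPM with DOX, and it fell by 0.37 ± 0.12 (adjusted p = 0.017 by edgeR). That call was lost without vehicle replicate 1 (adjusted p = 0.057) or DOX replicate 3 (adjusted p = 0.053). PAOX, the oxidase that acts on the acetylated polyamines made by SAT1, was at or under 1.46 CPM in every library, and its log2 fold changes of -0.86 ± 0.37 and -0.49 ± 0.46 did not pass. SAT2, a relative of SAT1, had values of 0.12 ± 0.15 and -0.31 ± 0.21 that did not pass.

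Among genes of polyamine transport and hypusination, 3 of 9 fell and 1 rose in QGP-1 cells, and 4 of 9 fell and none rose in BON-1 cells by edgeR. In BON-1 cells DESeq2 called 4 lower and limma called 3. At an unadjusted p below 0.05 by edgeR 5 were lower there. None was higher by any of these, all of which used the same libraries. With 17.0% of all genes called higher in BON-1 cells, few or none would be met among 9 genes, so nothing is read from this. Hypusination is the change of 1 lysine of the translation factor eIF5A with a group taken from spermidine. EIF5A was at 653, 650 and 693 CPM with vehicle and 529, 382 and 362 CPM with DOX in QGP-1 cells, and at 309, 272 and 248 against 197, 205 and 172 CPM in BON-1 cells. EIF5A fell by 0.65 ± 0.11 (adjusted p = 0.00055 by edgeR) and by 0.54 ± 0.09 (adjusted p = 1.4e-05). Its relative EIF5A2 fell by 0.54 ± 0.12 (adjusted p = 0.0040 by edgeR) and by 0.88 ± 0.10 (adjusted p = 4.3e-08). DHPS, deoxyhypusine synthase, which carries out the first step, fell by 0.58 ± 0.07 (adjusted p = 3.7e-05 by edgeR) and by 0.39 ± 0.09 (adjusted p = 0.00091). For EIF5A, EIF5A2 and DHPS every DOX library lay under every vehicle library of its line. DOHH, deoxyhypusine hydroxylase, which carries out the second step, had log2 fold changes of 0.16 ± 0.37 and -0.32 ± 0.30, neither of which passed. DHPS overlaps WDR83, EIF5A overlaps GPS2 and AGMAT overlaps DNAJC16 on the opposite strand, and the counts of such a pair may hold reads of both. The annotation also lists 3 EIF5A pseudogenes, without rows in the tables.

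**Figure D4:**
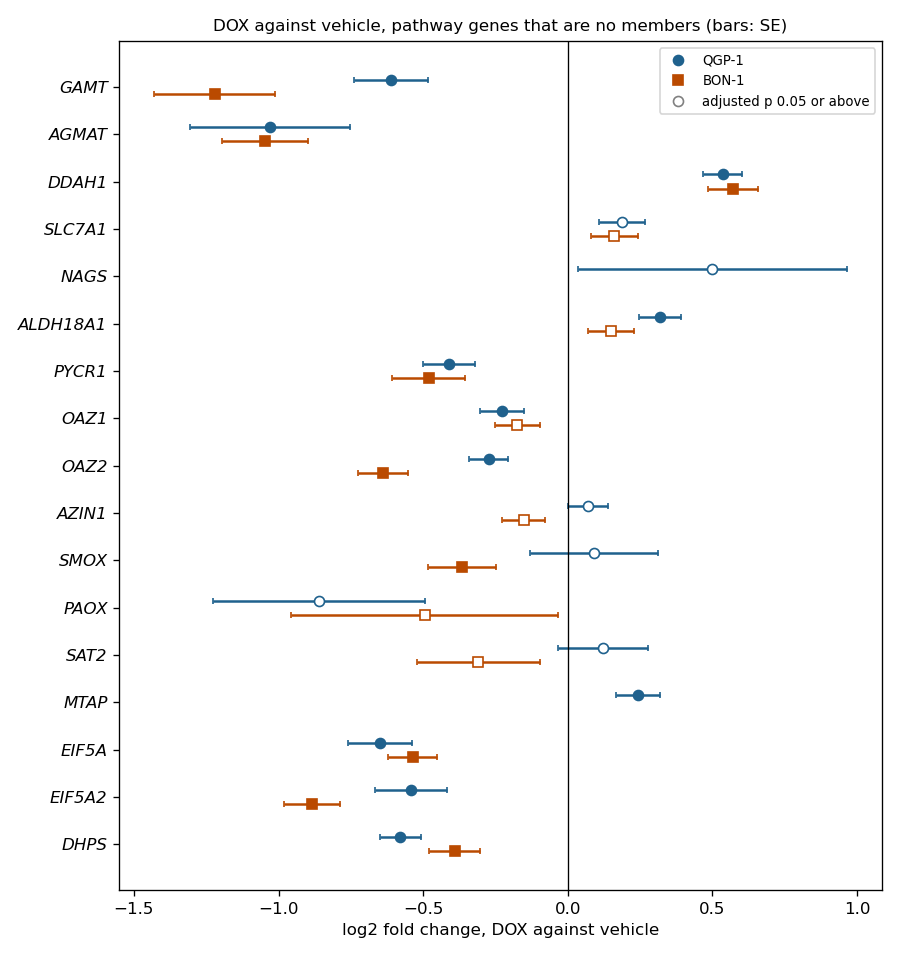
Log2 fold change with DOX against vehicle for 17 pathway genes that are no members, in QGP-1 (circles) and BON-1 (squares), with bars of 1 standard error. Open points have an adjusted p of 0.05 or above, and NAGS and MTAP had too few counts for a value in BON-1 cells. EIF5A, EIF5A2 and DHPS lie to the left of 0 in both lines, and DDAH1 lies to the right.

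In the list for decarboxylated S-adenosylmethionine supply and methionine salvage, 1 of 8 genes fell and 2 rose in QGP-1 cells by edgeR. In BON-1 cells 1 of 6 rose and none fell. The same counts were met at an unadjusted p below 0.05 and by DESeq2 or limma. With 18.3% of all genes called lower in BON-1 cells, few or none would be met among 6 genes, so nothing is read from this absence. MTAP clears methylthioadenosine, which is released each time SRM or SMS transfers an aminopropyl group. It had 2118 to 3012 counts in QGP-1 libraries and 0 counts in all 6 BON-1 libraries. Set against a floor of 3 counts over the group, MTAP was at least 1333-fold higher in QGP-1 than in BON-1 vehicle libraries. In QGP-1 cells MTAP was at 57.0, 56.3 and 56.7 CPM with vehicle and at 64.0, 72.0 and 65.2 CPM with DOX, and it rose by 0.24 ± 0.08 (adjusted p = 0.023 by edgeR). That call was lost without vehicle replicate 1 or 2 or DOX replicate 2 (adjusted p of 0.060 to 0.12). With the 12 libraries in 1 fit it was lost as well (adjusted p = 0.054 by edgeR). Within 1000000 bases on each side of MTAP, 8 genes, MTAP included, had 10 or more counts in each QGP-1 library, and 7 of these had 0 counts in all BON-1 libraries: MTAP, KLHL9, CDKN2A, CDKN2B-AS1, CDKN2B, DMRTA1 and LINC01239. Over the whole tables this held for 212 of 14002 genes. The neighbours of MTAP were looked up after its values had been seen.

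Between the vehicle libraries, 15 of 47 list genes were lower and 18 higher in BON-1 cells. These are 31.9% and 38.3%, beside 38.0% and 39.4% of all 15835 genes tested, so differences of this kind are not particular to the lists. SMOX was 9.88-fold higher in BON-1 cells (log2 difference 3.30 ± 0.14, adjusted p = 1.8e-14 by edgeR). OAZ1, SAT2 and PAOX had log2 differences of 0.11 ± 0.07, -0.25 ± 0.18 and 0.20 ± 0.35, which did not pass. PYCR1 was 2.20-fold lower and SLC7A1 1.95-fold lower (adjusted p = 5.4e-10 and 5.7e-10 by edgeR), while AGMAT was 6.12-fold higher (adjusted p = 2.2e-12). EIF5A was 2.35-fold lower and EIF5A2 2.86-fold higher (adjusted p = 1.1e-11 and 1.1e-10 by edgeR). PRODH2 had 222 counts over the BON-1 vehicle libraries and 2 over those of QGP-1 cells, a ratio of 201 with an exact 95% counting interval from 55.0 to 1669.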

How the data were processed

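RNA-seq was done on 12 libraries, 3 for each of 4 groups taken from the sample labels, from cells cultured in triplicate. The authors made TruSeq Stranded mRNA libraries, aligned reads to GRCh38 with STAR, and deposited raw counts per gene for each line and TPM values. Up to a factor per library, the ratio of TPM to count varied by less than 1% across the libraries of a line for 99.7% (QGP-1) and 99.5% (BON-1) of genes with 50 or more counts in each, as for counts divided by a gene length. The STAR version, the counting program, its strand setting and the handling of reads with several matches are not given in the sources used here. Each column of values was assigned by its name in the labels.

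The quasi-likelihood test of edgeR 4.0.16 (R 4.3.3) was applied to the counts, with the default filter, TMM scaling and Benjamini-Hochberg adjustment over all genes tested, at a threshold of 0.05 without a minimum fold change. The fits were DOX against vehicle in each line, BON-1 against QGP-1 in vehicle libraries, and the interaction of line and DOX in all 12 libraries. The standard error is the log2 fold change divided by the root of the F statistic. P-values measure the spread between these cultures. The code was tested on simulated counts.

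The members and the pathway lists were chosen with earlier results of these data known. Genes are named if they are members, MUC1, list genes called in both lines, the list gene called with the most positive or most negative change of a line, or one of 13 counterparts of members that were named whatever their values. Some list genes that meet this rule are not reported here, though they count in the totals. Another 6 list genes are named below for a difference between the lines, and DOHH and neighbours of MTAP were named after their values were seen. Alternatives were DESeq2 1.42.0, no TMM scaling, no filter, 10 or more counts in every library, a replicate block, the 12 libraries in 1 fit, each library left out in turn, and limma 3.58.1 on log2(TPM + 1) or log2(TPM + 0.1) where the mean TPM was 1 or more, after rescaling by median ratios. That rescaling was needed because unscaled TPM shifted the median gene by 0.59 (log2) in QGP-1 and -0.31 in BON-1 cells. Within each group, libraries differed beyond sampling noise (chi-square per gene 5.72 to 28.2). Counting intervals cover counting error only. Motifs were searched in RefSeq promoter windows, and gene positions, overlaps and pseudogenes are from GENCODE on GRCh38.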

Additional observations from a re-analysis of the deposited data

Results flagged for a closer look

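The response to DOX differed between the lines for 3 members and 7 of the pathway genes described here, by the interaction term of line and DOX in edgeR's fit of the 12 libraries. The differences, BON-1 minus QGP-1 on the log2 scale, were 0.70 for SAT1, 0.52 for ARG2 and 0.35 for AMD1. For these members the values entered the choice of genes, so they are a description. Over the 49 list genes tested, 3 differences were called lower and 5 higher, and with library size in place of TMM scaling 7 lower and 4 higher. The share called was 16.3% of these list genes, beside 16.7% of all 16598 genes tested, so the count says nothing particular about the lists.

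Among the pathway genes called, the largest difference was -1.40 ± 0.13 for SLC7A2, a cationic amino acid transporter (adjusted p = 3.1e-08 by edgeR). SLC7A2 was at 51.1, 48.6 and 49.0 CPM with vehicle and 57.8, 55.8 and 52.6 CPM with DOX in QGP-1 cells, and at 100.2, 96.9 and 80.9 against 38.0, 38.4 and 41.9 CPM in BON-1 cells. The DOX groups lay apart from vehicle in both lines, above it in QGP-1 cells, where the log2 fold change of 0.16 ± 0.08 did not pass, and under it in BON-1 cells, where SLC7A2 fell by 1.24 ± 0.09.

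MAT2B, the regulatory subunit of methionine adenosyltransferase, differed by 0.77 ± 0.13 (adjusted p = 0.00013 by edgeR), and its catalytic partner MAT2A by -0.39 ± 0.11 (adjusted p = 0.019). In QGP-1 cells MAT2B fell by 0.67 ± 0.08 and MAT2A rose by 0.36 ± 0.08, while the BON-1 values of 0.09 ± 0.10 and -0.04 ± 0.08 did not pass. GLUL, glutamine synthetase, differed by 0.61 ± 0.11 (adjusted p = 0.00031 by edgeR). GLUL rose by 0.60 ± 0.08 in BON-1 cells, against a log2 fold change of -0.00 ± 0.07 in QGP-1 cells.

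GATM, which uses arginine in the first step of creatine synthesis, differed by 0.75 ± 0.19 (adjusted p = 0.0077 by edgeR). It was at 2.06 to 2.68 CPM with vehicle and 1.08 to 1.87 CPM with DOX in QGP-1 cells, and at 144 to 160 against 157 to 166 CPM in BON-1 cells. OAZ2 differed by -0.36 ± 0.11 (adjusted p = 0.028 by edgeR). SLC38A9, a lysosomal arginine sensor, differed by 0.38 ± 0.13 (adjusted p = 0.045 by edgeR). Calls were lost when 1 library was left out for SLC38A9 in 10 of 12 fits, for OAZ2 in 4, for GATM in 1 (without QGP-1 DOX replicate 1) and for MAT2A in 1 (without QGP-1 vehicle replicate 1). The SLC38A9 call was also lost with library size in place of TMM scaling (adjusted p = 0.11 by edgeR). Without the filter on low counts it was lost as well (adjusted p = 0.092 by edgeR).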

How the results depend on the processing

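The number of genes called stayed within 1.5 times its value under each alternative run, from 3971 to 5554 for QGP-1 and 4134 to 5256 for BON-1 cells with DOX, 9942 to 12896 between the vehicle libraries and 2114 to 3239 for the difference of responses. Members called varied from 4 to 6, 5 to 7, 6 to 8 and 2 to 4 in these comparisons, and list genes called from 13 to 20, 15 to 21, 29 to 35 and 6 to 11. Of 1609 values of single named genes under an alternative, 1496 kept their direction and side of the threshold, 55 lost and 38 gained a call, and 20 changed sign, all of them for values near 0 that were not called. GLUL with DOX in QGP-1 cells was 0.0013 with DESeq2, 0.014 without TMM scaling and 0.0054 without a filter. OAT between vehicle libraries was 0.071 without TMM scaling, and DDAH1 was -0.0087 in the fit of 12 libraries and -0.0011 with DESeq2. With 1 library left out, log2 values with DOX in QGP-1 cells ran from -0.024 to 0.072 for SAT1, -0.035 to 0.089 for SLC38A9 and -0.029 to 0.034 for GLUL. Between vehicle libraries they ran from -0.080 to 0.067 for OAT, -0.025 to 0.073 for SAT1, -0.099 to 0.084 for DDAH1 and -0.030 to 0.14 for ALDH18A1, and the ASS1 difference of responses from -0.022 to 0.37. The cause was not tested.

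Libraries with the same replicate number did not deviate together (Pearson r over genes -0.02 to 0.05 in QGP-1 and -0.04 to 0.07 in BON-1 cells), so the numbers do not pair them. With the replicate number as a block, 5487, 5064, 12365 and 2767 genes were called in the 4 comparisons, the calls gained were those of OAT (-0.21) and SLC7A1 with DOX in QGP-1 cells, ASL and OAZ2 between vehicle libraries and SRM for the difference of responses, no call was lost, and OAT between vehicle libraries was 0.0018. Genes under the TPM or count minimum, such as CPS1, have no value under those alternatives. In BON-1 cells CPS1 and ASS1 had at most 5 and 99 counts in a library, which limits the precision of their values.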
